A study of Mus musculus with 22 samples.

Results

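Hedgehog signalling and parathyroid hormone-related protein (PTHrP) were examined in osteoblast cultures grown from mouse pluripotent stem cells. The 9 genes were Ihh, Shh, Ptch1, Gli1, Gli2, Gli3, Smo, Hhip and Pthlh, taken by their gene symbol, and all 9 were present among the 18632 genes that the 3 deposited comparison tables shared. The tables compared sorted ESC-OB GFP+ cells with ESC, ESC-OB with ESC, and iPSC-OB with iPSC. They hold the authors' fold changes and p-values and no value per sample.

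Every cell came from a Col2.3GFP embryonic stem cell (ESC) line or a Col2.3GFP induced pluripotent stem cell (iPSC) line, the undifferentiated cells included. In these lines green fluorescent protein (GFP) is made under a piece of the Col1a1 promoter that is active in the osteoblast lineage. The sorted ESC-OB GFP+ group (3 samples in the labels, no passage given) was chosen for that reporter after 35 to 40 days of differentiation. The ESC-OB cultures (3 samples, passages 20 to 30) had the same time but were not sorted. ESC (3 samples, passages 20 to 30) were at day 0. The iPSC-OB cultures (2 samples, passages 10 to 20, 35 to 40 days) were set against iPSC at day 0 (2 samples, passages 10 to 20). Differentiation passed through 6 days of embryoid bodies, with retinoic acid at 0.1 µM added on day 3 and removed on day 5, and without LIF, PD0325901 and CHIR99021, before plating in osteogenesis medium. No Hedgehog agonist is named in the labels. Stem cells were kept on fibroblast feeders or feeder-free, and scarce RNA was prepared with a different low-input kit, but the labels do not say which samples, so kit or feeders and group cannot be told apart. The labels do not say whether replicates were separate cultures. The p-values therefore rest on a spread between samples that may be technical.

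Hedgehog ligands such as Ihh, Shh and Dhh bind the receptor Ptch1, which otherwise holds back the transducer Smo, and active Smo turns the Gli factors towards activation. Gli1, Ptch1 and Hhip are widely used transcriptional readouts of the pathway, and Ptch1 and Hhip also restrain it by binding the ligands. In the growth plate, prehypertrophic chondrocytes make Ihh, which acts on the perichondrium to promote osteoblast formation and raises PTHrP, and PTHrP acts through its receptor Pth1r to delay hypertrophy.

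Differentiated cells had more transcripts of the ligand Ihh and of Hhip and fewer of Ptch1, Gli1 and Gli2. In sorted ESC-OB GFP+ cells, 4 of the 9 genes rose (Ihh, Smo, Hhip, Pthlh) and 3 fell (Ptch1, Gli1, Gli2) at an adjusted p under 0.05 in the authors' deposited table, where 39.1% of all tested genes were called higher and 32.4% lower. In ESC-OB, 5 rose, Shh being added, and the same 3 fell in the authors' deposited table, against 38.6% and 31% of all tested genes. In iPSC-OB, 3 rose (Ihh, Shh, Hhip) and 3 fell (Ptch1, Gli1, Gli2) in the authors' deposited table, against 26.1% and 23.1%. With 9 genes and so many genes called in each table, these counts alone do not set the group apart. Which genes went which way is shown in the plot of fold changes by gene, and no background was taken for such a mix of directions. In bulk RNA, fewer cells of a type and less RNA per cell cannot be told apart.

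**Figure D1:**
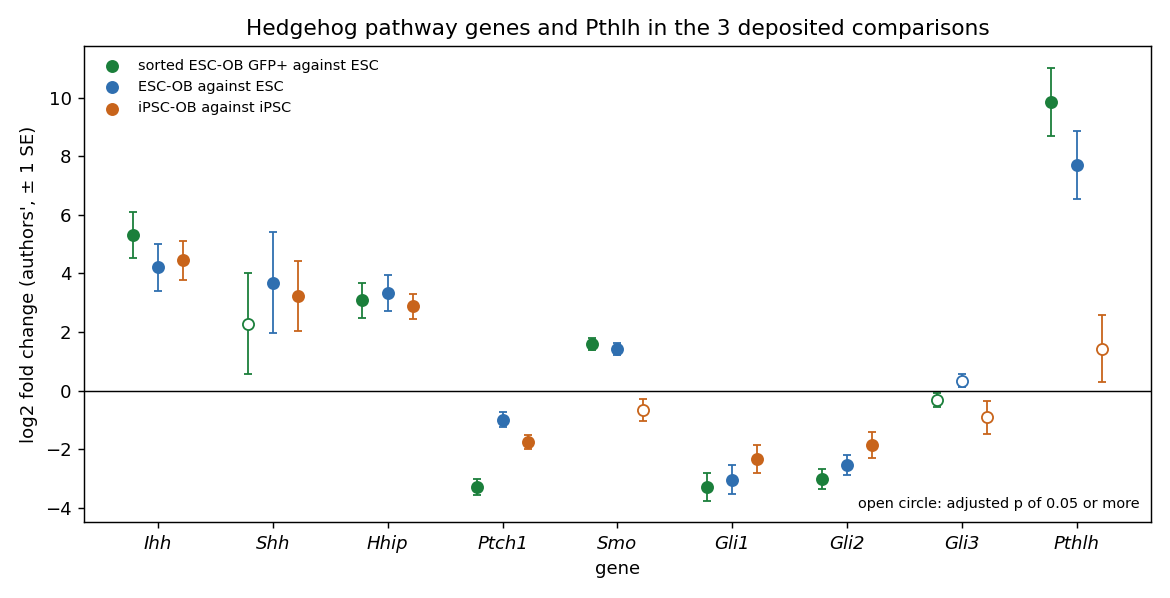
The authors' log2 fold changes (y axis, ± 1 SE) of the 9 genes (x axis) are plotted for sorted ESC-OB GFP+ cells against ESC, ESC-OB against ESC and iPSC-OB against iPSC, with open circles where the adjusted p was 0.05 or more. Ihh and Hhip lie above 0 and Ptch1, Gli1 and Gli2 below 0 in all 3 comparisons, whereas Smo and Pthlh are filled in the ESC comparisons only.

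The depths behind these values were worked out from the base means, the authors' average of normalised reads over the libraries of a fit. Low base means are sums of whole reads, each worth a fixed amount per library, and 9 libraries explained all 1293 base means checked in the ESC fit and 5 libraries all 1182 in the iPSC fit. The depth of a library was estimated as its size factor times the sum of all base means, which takes totals as proportional to size factors. By this estimate sorted ESC-OB GFP+ libraries had 22.4 to 30.1 M reads. ESC-OB libraries had an estimated 6.72 to 11.5 M and ESC libraries 4.49 to 19.5 M. In the iPSC fit, iPSC-OB libraries had an estimated 10.1 to 17.7 M and iPSC libraries 10.4 to 13.0 M. The iPSC side of the fit held 3 libraries, against 2 iPSC samples in the labels used here. Libraries are numbered below from the deepest and could not be tied to a labelled replicate. Group levels are given in normalised reads, estimated from the base mean, the fold change and the number of libraries. The fold changes are shrunken towards 0, so these estimates can be off where reads are few. Shh in iPSC had 1.84 by this estimate and a mean of 0.66 from its reads. Group levels are not corrected for gene length, so levels are not compared between genes, and a level summed over a marker list weighs long and abundant genes more. Levels and sums are compared between groups of the same fit only, because the ESC and iPSC fits were normalised separately.

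The osteoblast label was checked on its markers. Col1a1, Runx2, Ibsp, Bglap and Pth1r were among the markers that rose in all 3 comparisons of the authors' deposited tables, while Alpl fell in all 3. Bglap rested on few reads, an estimated 5.75, 9.28 and 13.3 normalised reads in sorted ESC-OB GFP+ cells, ESC-OB and iPSC-OB. Sp7 rose in sorted ESC-OB GFP+ cells (log2 3.29 ± 1.05) and was not called in ESC-OB (1.69 ± 1.09) or iPSC-OB (-0.05 ± 1.13). Spp1 fell in ESC-OB (-1.61 ± 0.31) and was not called in the other comparisons. Of the 9 osteoblast markers, 7 rose and 1 fell in sorted ESC-OB GFP+ cells, 6 rose and 2 fell in ESC-OB, and 6 rose and 1 fell in iPSC-OB, by the authors' deposited tables. In the same order, 77.8%, 66.7% and 66.7% of these markers rose, against 39.1%, 38.6% and 26.1% of all tested genes. The shares that fell were 11.1%, 22.2% and 11.1%, against 32.4%, 31% and 23.1%. The summed estimated level of the osteoblast markers was 127191 normalised reads in sorted ESC-OB GFP+ cells, 61687 in ESC-OB and 13165 in ESC, and 35722 in iPSC-OB against 16349 in iPSC. Most of it in the differentiated groups was Col1a1 and Col1a2, at 61215 and 49086 in sorted ESC-OB GFP+ cells and 28915 and 27201 in ESC-OB. The sorted cells were chosen for a reporter under a piece of the Col1a1 promoter, so their higher sum is no independent check of the label. Col1a1, the collagen gene behind the reporter, stood at an estimated 4775 normalised reads in iPSC in the iPSC fit and at 124 in ESC in the ESC fit, values on separate scales. The 8 pluripotency markers fell in all 3 comparisons of the authors' deposited tables, 100% of the list in each, against 32.4%, 31% and 23.1% of all tested genes.

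Ihh, the Hedgehog ligand of the skeleton, rose in all 3 comparisons. Its estimated level was 69.3 normalised reads in sorted ESC-OB GFP+ cells, 32.0 in ESC-OB and 1.73 in ESC. In the authors' deposited table its log2 fold change was 5.32 ± 0.79 in sorted ESC-OB GFP+ cells (SE, adjusted p = 3.99e-11) and 4.21 ± 0.80 in ESC-OB (adjusted p = 3.69e-07), which are 40.0-fold and 18.5-fold. In the iPSC fit the reads of Ihh could be worked out library by library, and they were 264 and 67 in the iPSC-OB libraries and 7, 2 and 5 in the iPSC libraries. Both iPSC-OB libraries were above all iPSC libraries, with 183 and 81.4 normalised reads against at most 6.59. The share of all genes with such a separation was not worked out, here or for the genes below. The authors' deposited table gave 4.44 ± 0.65 on the log2 scale for iPSC-OB (adjusted p = 9.31e-11). The log2 ratio of the mean normalised reads was 4.77, and it lay between 4.07 and 5.24 when each library was left out in turn.

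Markers of cell types that could carry Ihh moved in the same samples. Of 8 hypertrophic chondrocyte markers, 4 rose and 2 fell in sorted ESC-OB GFP+ cells, 6 rose and 1 fell in ESC-OB, and 3 rose and 2 fell in iPSC-OB in the authors' deposited tables. In the same order, 50%, 75% and 37.5% of the list rose, against 39.1%, 38.6% and 26.1% of all tested genes. The shares that fell were 25%, 12.5% and 25%, against 32.4%, 31% and 23.1%. In iPSC-OB the median log2 fold change of the list was 0.21, near the 0.17 of all genes. The summed level of these markers was 1618, 1139 and 360 normalised reads in sorted ESC-OB GFP+ cells, ESC-OB and ESC, and 884 in iPSC-OB against 462 in iPSC. Within the list, Col2a1 fell in sorted ESC-OB GFP+ cells (log2 -0.83 ± 0.33) and ESC-OB (-1.27 ± 0.34) and was not called in iPSC-OB (1.00 ± 0.63). Acan fell in sorted ESC-OB GFP+ cells (-1.20 ± 0.48) and iPSC-OB (-4.15 ± 0.52) and rose in ESC-OB (1.08 ± 0.48). Col10a1, the collagen that defines hypertrophic chondrocytes, rose by 2.24 on the log2 scale in ESC-OB, while its log2 fold change was 1.52 in sorted ESC-OB GFP+ cells and -0.80 in iPSC-OB without a call in the authors' deposited tables. Of 9 visceral and yolk sac endoderm markers, 8, 8 and 9 rose in sorted ESC-OB GFP+ cells, ESC-OB and iPSC-OB and 0 fell in the authors' deposited tables. That is 88.9%, 88.9% and 100% of these markers, against 39.1%, 38.6% and 26.1% of all tested genes called higher, and 0% lower, against 32.4%, 31% and 23.1%. Those markers summed to 8790 normalised reads in sorted ESC-OB GFP+ cells, 7536 in ESC-OB and 146 in ESC, and to 34055 in iPSC-OB against 239 in iPSC. Their part in the rise of Ihh was not tested.

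Shh, the ligand of gut epithelium and floor plate, was at or near the floor of detection. In the ESC fit its reads were 1, 7 and 0 in the sorted ESC-OB GFP+ libraries, 5, 1 and 3 in the ESC-OB libraries and 0, 0 and 0 in the ESC libraries. The ESC-OB libraries were all above the ESC libraries, and the sorted libraries overlapped them. A floor of 3 reads over the ESC group is 1.22 normalised reads, which makes Shh at least 3.20-fold higher in ESC-OB, and such floors cover counting error only. The authors' deposited table called ESC-OB (log2 3.68 ± 1.72, adjusted p = 0.0471) and did not call sorted ESC-OB GFP+ cells (2.28 ± 1.72, adjusted p = 0.227). The ESC-OB call was lost with adjustment over every gene (adjusted p = 0.0510). Exons of Shh share 446 bases, 15.7% of their length, with 9530036O11Rik and 361 bases, 12.7%, with Gm26894, both on the other strand in the GENCODE M21 annotation. Reads there may belong to either gene unless strand was used in counting.

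In the iPSC fit Shh rested on 1 library. It had 53 and 1 reads in the iPSC-OB libraries and 1, 1 and 0 in the iPSC libraries, so the shallower iPSC-OB library stood close to the iPSC libraries, at 1.21 normalised reads against at most 1.05. The authors' deposited table gave a log2 fold change of 3.22 ± 1.20 for iPSC-OB (adjusted p = 0.0171). Without the deeper iPSC-OB library the log2 ratio of means was 0.87, compared with 4.84 with both. Of 9 gut and airway endoderm epithelium markers, 7, 6 and 5 rose and 2, 2 and 2 fell in sorted ESC-OB GFP+ cells, ESC-OB and iPSC-OB in the authors' deposited tables. Thus 77.8%, 66.7% and 55.6% of the list rose, against 39.1%, 38.6% and 26.1% of all tested genes. In each group 22.2% of it fell, against 32.4%, 31% and 23.1%. The summed level of these markers was 31891, 16660 and 6023 normalised reads in sorted ESC-OB GFP+ cells, ESC-OB and ESC, and 18878 in iPSC-OB against 14156 in iPSC. Of 9 floor plate and neural tube markers, 3, 4 and 3 rose and 4, 2 and 3 fell in the same order of groups in the authors' deposited tables, and Foxa2 rose in all 3 while Sox2 fell in all 3. These are 33.3%, 44.4% and 33.3% that rose, near the 39.1%, 38.6% and 26.1% of all tested genes. The shares that fell were 44.4%, 22.2% and 33.3%, against 32.4%, 31% and 23.1%. The floor plate and neural tube markers summed to 1342, 2673 and 7391 normalised reads in sorted ESC-OB GFP+ cells, ESC-OB and ESC, and 1394 in iPSC-OB against 4985 in iPSC. Sox2 also stands in the list of pluripotency markers, which fell in all 3 comparisons, so these sums do not measure floor plate cells alone. The median log2 fold changes of the list were -1.03, 1.51 and 1.20 in sorted ESC-OB GFP+ cells, ESC-OB and iPSC-OB. Those of all genes were 0.33, 0.22 and 0.17. The part of these cells in the values of Shh was not tested.

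Dhh, the ligand of Schwann cells and testis, is no member of the set but completes the ligand family. It rose in all 3 comparisons of the authors' deposited tables, by 4.86 ± 0.69, 4.31 ± 0.69 and 4.53 ± 0.96 on the log2 scale in sorted ESC-OB GFP+ cells, ESC-OB and iPSC-OB. Its reads were 22 and 91 in the iPSC-OB libraries against 2, 1 and 1 in the iPSC libraries. The deeper iPSC-OB library thus had the larger number of Shh and Ihh reads and the shallower one the larger number of Dhh reads.

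**Figure D2:**
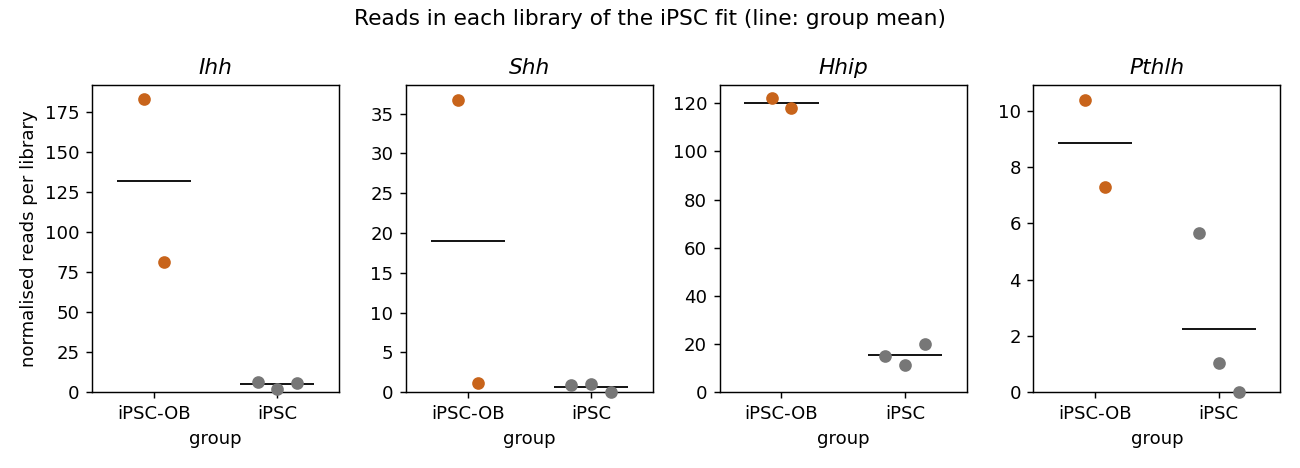
Normalised reads (y axis, from 0, a separate scale for each gene) of Ihh, Shh, Hhip and Pthlh are plotted for each library of the iPSC fit, iPSC-OB on the left and iPSC on the right, with a line at the group mean. The 2 iPSC-OB libraries lie close together for Hhip, at 122 and 118, and far apart for Shh, at 36.8 and 1.21.

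Hhip and Ptch1, the receptors that bind Hedgehog ligands and restrain the pathway, went opposite ways. Hhip, a membrane protein that sequesters ligand, stood at an estimated 85.5 normalised reads in sorted ESC-OB GFP+ cells, 102 in ESC-OB and 10.1 in ESC. Its log2 fold change in the authors' deposited table was 3.08 ± 0.60 in sorted ESC-OB GFP+ cells (adjusted p = 7.04e-07) and 3.34 ± 0.61 in ESC-OB (adjusted p = 1.03e-07). In the iPSC fit it had 176 and 97 reads in the iPSC-OB libraries and 16, 11 and 17 in the iPSC libraries. The iPSC-OB libraries differed little after normalisation, and both lay above every iPSC library. The authors' deposited table gave 2.87 ± 0.44 for iPSC-OB (adjusted p = 3.98e-10), and the log2 ratio of means lay between 2.77 and 3.17 when each library was left out in turn.

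Ptch1, the receptor that inhibits Smo, had an estimated 86.4 normalised reads in sorted ESC-OB GFP+ cells, 425 in ESC-OB and 850 in ESC. It was 551 in iPSC-OB against 1846 in iPSC. Ptch1 fell in all 3 comparisons of the authors' deposited tables, with log2 fold changes of -3.30 ± 0.26 in sorted ESC-OB GFP+ cells (adjusted p = 1.49e-35), -0.999 ± 0.26 in ESC-OB (adjusted p = 2.19e-04) and -1.75 ± 0.24 in iPSC-OB (adjusted p = 7.92e-12). The fall was deeper in the sorted cells than in the unsorted cultures, by -2.30 ± 0.37 on the log2 scale (95% interval -3.02 to -1.58, adjusted p = 1.13e-08, normal test on the difference of the deposited fold changes over all genes). Across all genes, 22.7% were called in this difference, and Ptch1 was the 1 gene of the 9. Both changes are measured against the same ESC libraries, so the standard error of the difference, which takes them as independent, is too large.

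The promoters of these receptors are shown because both genes are known Gli targets while their transcripts moved in opposite directions. The windows are the 250 bases upstream of the annotated start, from RefSeq on build GRCm38.p6, and are written 5′ to 3′ on the gene's strand. Hhip lies at chr8:80058009-80058258 (minus strand) and Ptch1 at chr13:63565736-63565985 (minus strand), and both windows are rich in G and C, at 76% and 78.4%. Capitals mark the cyclic AMP response element TGACGTCA, the sequence recognised by the factor CREB, which acts downstream of PTHrP and its receptor.
Hhip: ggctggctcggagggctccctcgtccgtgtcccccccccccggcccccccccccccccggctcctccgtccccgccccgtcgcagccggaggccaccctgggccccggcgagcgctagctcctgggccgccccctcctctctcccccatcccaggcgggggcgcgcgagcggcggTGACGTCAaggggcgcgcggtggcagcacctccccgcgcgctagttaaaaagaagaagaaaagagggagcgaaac
Ptch1: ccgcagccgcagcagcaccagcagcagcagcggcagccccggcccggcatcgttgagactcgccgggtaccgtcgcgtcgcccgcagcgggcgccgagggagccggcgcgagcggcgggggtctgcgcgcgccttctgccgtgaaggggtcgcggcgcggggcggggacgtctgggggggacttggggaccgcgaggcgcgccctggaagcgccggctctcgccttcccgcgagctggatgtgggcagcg
Windows were found for 7 of the 9 genes, Shh and Gli1 having none. The Gli-binding sequence GACCACCCA, searched on both strands, matched in 0 of these 7 windows, also with 1 mismatch allowed. Among 32851 windows of the same length it matched in 0.225% exactly and in 5.79% with 1 mismatch. The element TGACGTCA, which reads the same on both strands, matched exactly in Hhip alone, starting at position -75 from the annotated start, and in 1.55% of all windows. A match or its absence in these windows says only whether the letters are there.

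**Figure D3:**
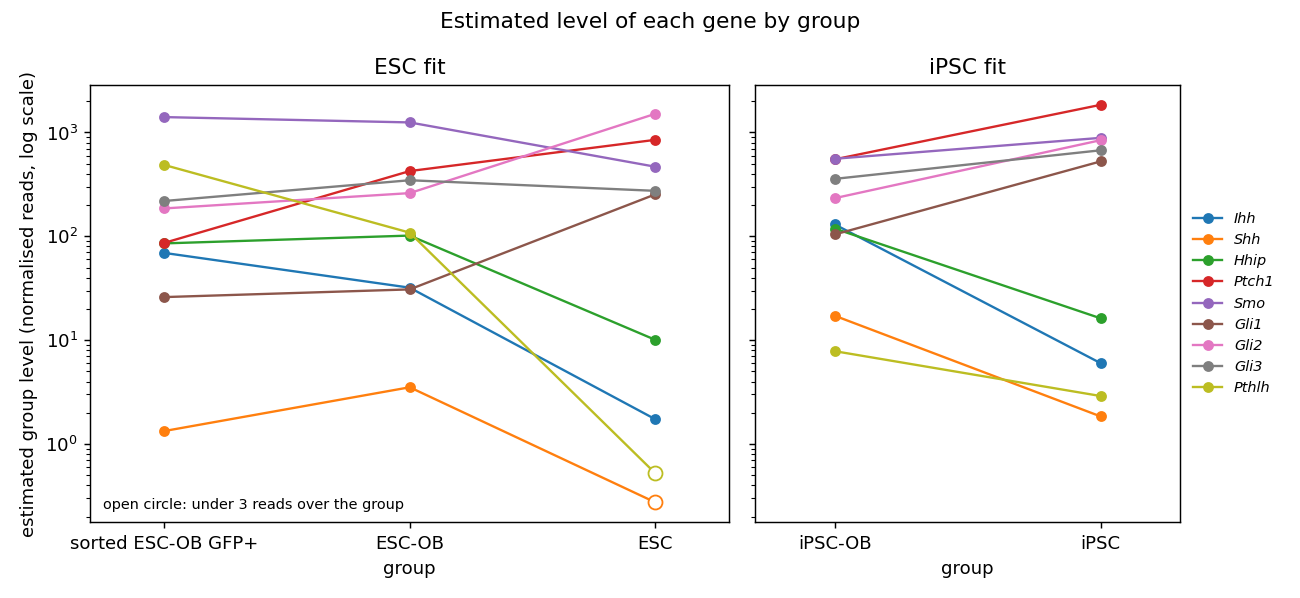
Estimated group levels (y axis, normalised reads, log scale) of the 9 genes are joined by a line for each gene across sorted ESC-OB GFP+ cells, ESC-OB and ESC in the ESC fit on the left, and iPSC-OB and iPSC in the iPSC fit on the right. Open circles mark estimated levels under a floor of 3 reads over the group, which were Shh and Pthlh in ESC. Shh in iPSC had 2 reads in all, under that floor, but its estimated level of 1.84 lies above it and is drawn filled. The lines of Gli1, Gli2 and Ptch1 run upwards towards the undifferentiated cells.

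Smo, the transducer that Ptch1 holds back, rose in both ESC comparisons. Its estimated level was 1407 normalised reads in sorted ESC-OB GFP+ cells, 1250 in ESC-OB and 468 in ESC. The authors' deposited table gave log2 fold changes of 1.59 ± 0.21 in sorted ESC-OB GFP+ cells (adjusted p = 2.96e-13) and 1.42 ± 0.21 in ESC-OB (adjusted p = 1.21e-10). In the iPSC fit it stood at 558 normalised reads in iPSC-OB against 887 in iPSC, a log2 fold change of -0.67 ± 0.37 that was not called in the authors' deposited table (adjusted p = 0.124). The iPSC-OB change minus the ESC-OB change of Smo was -2.09 ± 0.43 (95% interval -2.93 to -1.25, adjusted p = 1.40e-05). Across all genes 28.2% were called in that difference, and Smo and Pthlh were the 2 called among the 9. Summed smooth muscle and mesenchyme markers stood at 4807 normalised reads in iPSC in the iPSC fit and at 265 in ESC in the ESC fit, values on separate scales that are given side by side only. The part of the undifferentiated cells in the difference was not tested.

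Gli1, the Gli factor that acts as an activator and is itself a target of the pathway, fell in all 3 comparisons. It had an estimated 26.0 normalised reads in sorted ESC-OB GFP+ cells, 30.8 in ESC-OB and 254 in ESC, and 104 in iPSC-OB against 527 in iPSC. Its log2 fold changes in the authors' deposited tables were -3.29 ± 0.47 (adjusted p = 9.23e-12), -3.04 ± 0.49 (adjusted p = 1.46e-09) and -2.34 ± 0.49 (adjusted p = 7.41e-06) in sorted ESC-OB GFP+ cells, ESC-OB and iPSC-OB. The exons of Gli1 share 265 bases, 5.31% of their length, with Gm47200 and 62 bases, 1.24%, with Arhgap9, both on the other strand in the GENCODE M21 annotation. Gm47200 was not analysed here. Arhgap9 fell by 2.67, 2.86 and 2.26 on the log2 scale in the same order of groups in the authors' deposited tables. The sources used here do not say whether reads were counted by strand, so reads in the shared bases cannot be told apart. Exons of Hhip (175 bases, with Gm27820) and Gli3 (188 bases, with Gm6556) also overlap a gene on the other strand.

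Gli2, the main activating Gli factor, fell in all 3 comparisons. It stood at an estimated 186 normalised reads in sorted ESC-OB GFP+ cells, 261 in ESC-OB and 1513 in ESC, and at 233 in iPSC-OB against 843 in iPSC. The authors' deposited tables gave log2 fold changes of -3.03 ± 0.33 (adjusted p = 4.08e-19), -2.54 ± 0.34 (adjusted p = 1.55e-13) and -1.86 ± 0.46 (adjusted p = 1.86e-04) in sorted ESC-OB GFP+ cells, ESC-OB and iPSC-OB.

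Gli3, which acts mainly as a repressor where ligand is absent, was not called in any of the 3 comparisons. Its estimated level was 219 normalised reads in sorted ESC-OB GFP+ cells, 347 in ESC-OB and 274 in ESC, and 357 in iPSC-OB against 674 in iPSC. In the authors' deposited tables its log2 fold changes were -0.32 ± 0.23 (adjusted p = 0.194), 0.34 ± 0.23 (adjusted p = 0.182) and -0.91 ± 0.56 (adjusted p = 0.166) in sorted ESC-OB GFP+ cells, ESC-OB and iPSC-OB. The 95% intervals of these changes ran from -0.77 to 0.12, from -0.11 to 0.79 and from -2.01 to 0.18. When fold changes were re-centred on the median gene, Gli3 fell in sorted ESC-OB GFP+ cells (log2 -0.53, adjusted p = 0.0286).

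Pthlh, which encodes PTHrP, had the largest fold change of the 9 genes in both ESC comparisons and no call in the iPSC comparison. Its estimated level was 487 normalised reads in sorted ESC-OB GFP+ cells and 109 in ESC-OB, while in ESC it lay at 0.52, under the floor of 1.22. Against that floor it was at least 400-fold higher in sorted ESC-OB GFP+ cells and at least 89.0-fold higher in ESC-OB. The fitted log2 fold changes in the authors' deposited table were 9.86 ± 1.16 in sorted ESC-OB GFP+ cells (adjusted p = 9.11e-17) and 7.70 ± 1.17 in ESC-OB (adjusted p = 1.33e-10). The sorted change minus the unsorted change was 2.17 ± 1.65 (95% interval -1.06 to 5.40, adjusted p = 0.438, normal test on the difference), which did not pass. That test takes both standard errors as independent. Both hold the error of the same ESC libraries, where Pthlh lies under the floor, so the standard error is too large. The test therefore cannot decide whether sorted cells and unsorted cultures differ in Pthlh.

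In the iPSC fit Pthlh had 15 and 6 reads in the iPSC-OB libraries and 6, 1 and 0 in the iPSC libraries. After normalisation these were 10.4 and 7.29 in iPSC-OB and 5.65, 1.05 and 0 in iPSC. The lowest iPSC-OB library and the highest iPSC library had 6 reads each, so their order rests on the size factors. The authors' deposited table gave 1.44 ± 1.15 on the log2 scale (adjusted p = 0.306). The log2 ratio of means was 1.99, and it was 4.08 without the deepest iPSC library and 1.40 without the shallowest. The iPSC-OB change minus the ESC-OB change of Pthlh was -6.26 ± 1.64 (95% interval -9.47 to -3.05, adjusted p = 9.66e-04). With a base mean under 10 in the iPSC fit, Pthlh rests there on few reads, and the fold changes of such genes are shrunk towards 0 by the authors' fit.

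Keratinocytes are a known source of PTHrP, and their markers moved in the same samples. All 9 keratinocyte and squamous epithelium markers rose in sorted ESC-OB GFP+ cells and in ESC-OB, while 7 rose and 1 fell in iPSC-OB, in the authors' deposited tables. The shares that rose were 100%, 100% and 77.8%, against 39.1%, 38.6% and 26.1% of all tested genes. Those that fell were 0%, 0% and 11.1%, against 32.4%, 31% and 23.1%. The summed level of these markers was 28215 normalised reads in sorted ESC-OB GFP+ cells, 22136 in ESC-OB and 495 in ESC, and 12182 in iPSC-OB against 2470 in iPSC. Krt14, a keratin of basal keratinocytes, stood at an estimated 6812 normalised reads in sorted ESC-OB GFP+ cells, 2005 in ESC-OB and 1.46 in ESC, and at 612 in iPSC-OB against 16.2 in iPSC. Other markers of the list differed in the step from ESC-OB to sorted cells. In sorted ESC-OB GFP+ cells and ESC-OB, Krt13 stood at 1499 and 2035, Trp63 at 409 and 358, Krt5 at 3843 and 2761, and Krt4 at 1819 and 939. The part of these cells in the values of Pthlh was not tested.

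**Figure D4:**
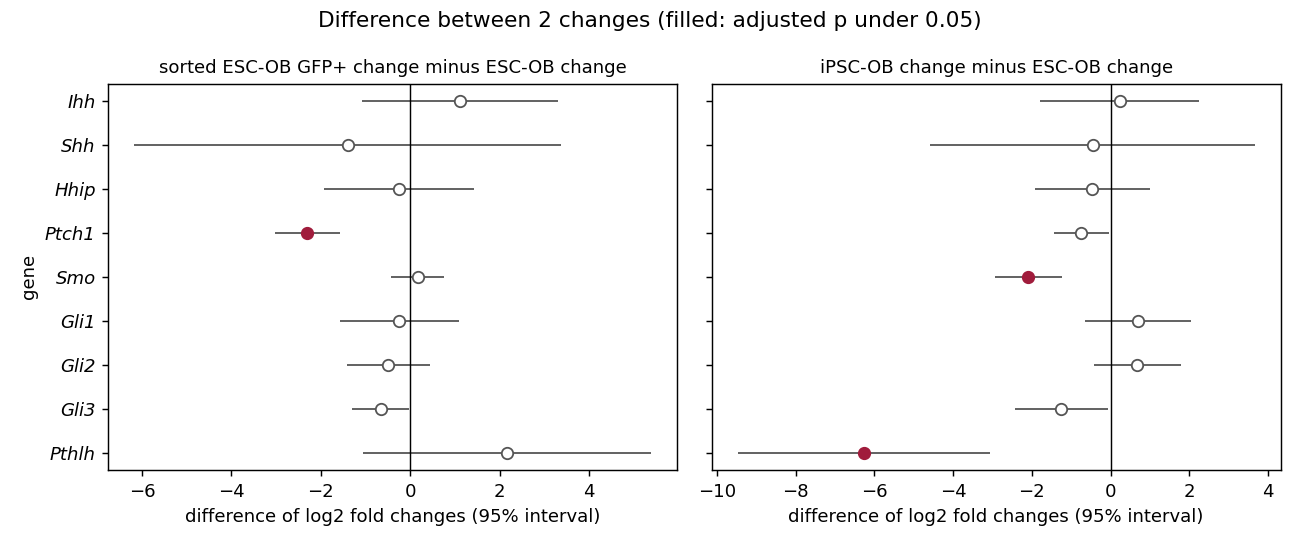
The difference between 2 log2 fold changes (x axis, with its 95% interval) is plotted for each of the 9 genes (y axis), on the left for sorted ESC-OB GFP+ cells minus ESC-OB and on the right for iPSC-OB minus ESC-OB. Filled points passed an adjusted p of 0.05: Ptch1 at -2.30 on the left, and Smo at -2.09 and Pthlh at -6.26 on the right. Intervals on the left are too wide because both changes share the ESC libraries.

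For the other genes the difference between changes did not pass. For iPSC-OB minus ESC-OB, the interval shows how much was left undecided. The sorted minus unsorted intervals count the error of the shared ESC libraries in both changes. They are therefore too wide, and a missed call there does not show that sorted and unsorted cells were alike. For Ihh, sorted minus unsorted was 1.11 ± 1.12 (95% interval -1.09 to 3.31) and iPSC-OB minus ESC-OB was 0.23 ± 1.03 (95% interval -1.79 to 2.26). For Hhip these differences were -0.25 ± 0.86 (95% interval -1.93 to 1.43) and -0.46 ± 0.75 (95% interval -1.93 to 1.00). Shh had the widest intervals of the 9 genes, -6.17 to 3.37 and -4.58 to 3.66. Gli1 had -0.25 ± 0.68 and 0.70 ± 0.69, and Gli2 had -0.49 ± 0.47 and 0.68 ± 0.57. Gli3 (-0.66 ± 0.33, adjusted p = 0.141, and -1.25 ± 0.60, adjusted p = 0.109) and the iPSC-OB difference of Ptch1 (-0.75 ± 0.35, adjusted p = 0.103) had 95% intervals that did not include 0 and yet missed the threshold after adjustment.

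The receptor of PTHrP, Pth1r, rose in all 3 comparisons. Its rise was 9.25 ± 0.44 in sorted ESC-OB GFP+ cells, 8.54 ± 0.44 in ESC-OB and 5.47 ± 0.47 in iPSC-OB on the log2 scale in the authors' deposited tables (adjusted p = 9.92e-98, 4.32e-83 and 5.18e-30). Its estimated level was 3128 normalised reads in sorted ESC-OB GFP+ cells, 1916 in ESC-OB and 5.14 in ESC, and 2775 in iPSC-OB against 62.5 in iPSC. The iPSC-OB change minus the ESC-OB change was -3.07 ± 0.64 (adjusted p = 1.90e-05). Pth1r thus rose in iPSC-OB while the change of its ligand gene Pthlh was not called there.

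Of 23 genes of the PTHrP receptor and its signal transduction, 13 rose and 4 fell in sorted ESC-OB GFP+ cells, 16 rose and 1 fell in ESC-OB, and 9 rose and 3 fell of the 22 present in iPSC-OB, in the authors' deposited tables. Of the 22 tested in each table, 59.1% rose and 18.2% fell in sorted ESC-OB GFP+ cells, where 39.1% and 32.4% of all tested genes did, 72.7% and 4.55% in ESC-OB, where 38.6% and 31% did, and 40.9% and 13.6% in iPSC-OB, where 26.1% and 23.1% did. The median log2 fold changes were 1.09 (1.02 with the 3 genes under the floor in ESC set to it), 0.76 and 0.39, where those of all genes were 0.33, 0.22 and 0.17. Gnas, the stimulatory G protein that couples the receptor to cyclic AMP, rose by 4.13 ± 0.12, 3.37 ± 0.12 and 0.98 ± 0.15 in sorted ESC-OB GFP+ cells, ESC-OB and iPSC-OB in the authors' deposited tables. Mef2c, a transcription factor of chondrocyte hypertrophy that PTHrP signalling restrains, rose by 8.39 ± 1.17, 8.74 ± 1.17 and 3.87 ± 0.54 in the same order in the authors' deposited tables, from a level under the floor in ESC. Rgs2, a regulator of G protein signalling, rose in all 3, by 8.37 ± 0.82, 8.24 ± 0.82 and 1.76 ± 0.62 in the authors' deposited tables. Arrb2, the arrestin that desensitises the receptor, fell in all 3, with -1.47 ± 0.24, -1.93 ± 0.25 and -1.71 ± 0.25 in the authors' deposited tables. Gnaq, the G protein that couples to phospholipase C, fell in sorted ESC-OB GFP+ cells (log2 -0.43 ± 0.17) and rose in ESC-OB (1.26 ± 0.17) and iPSC-OB (0.51 ± 0.21) in the authors' deposited tables. Tnfsf11, which encodes the osteoclast factor RANKL, fell in iPSC-OB by 2.25 ± 0.89 in the authors' deposited table, with 21 and 0 reads in the iPSC-OB libraries against 62, 45 and 30 in the iPSC libraries.

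Of 15 genes of ligand release and reception, 9 rose and 3 fell in sorted ESC-OB GFP+ cells, 11 rose and 2 fell in ESC-OB, and 12 rose and 1 fell in iPSC-OB, in the authors' deposited tables. Higher genes made up 60% of this list in sorted ESC-OB GFP+ cells, 73.3% in ESC-OB and 80% in iPSC-OB, against 39.1%, 38.6% and 26.1% of all tested genes, and lower genes 20%, 13.3% and 6.67%, against 32.4%, 31% and 23.1%. The median log2 fold changes were 2.18, 2.51 and 1.66, and those of all genes were 0.33, 0.22 and 0.17. Gas1 and Boc, co-receptors that help ligands reach Ptch1, rose in all 3: Gas1 by 6.86 ± 0.36, 5.65 ± 0.36 and 1.78 ± 0.65, and Boc by 6.25 ± 0.30, 6.07 ± 0.30 and 3.65 ± 0.27 in sorted ESC-OB GFP+ cells, ESC-OB and iPSC-OB in the authors' deposited tables. The co-receptor Cdon had -0.97 ± 0.41 in sorted ESC-OB GFP+ cells, where it fell, and 1.53 ± 0.40 in ESC-OB, where it rose, and was not called in iPSC-OB (0.28 ± 0.51) in the authors' deposited tables. Gpc6, a glypican, rose by 5.29 ± 0.32, 6.18 ± 0.32 and 3.16 ± 0.28 in the same order in the authors' deposited tables. Scube3, of the family of secreted proteins that help release ligand, fell in sorted ESC-OB GFP+ cells (-2.52 ± 0.42) and ESC-OB (-2.13 ± 0.43) and rose in iPSC-OB (1.29 ± 0.49) in the authors' deposited tables.

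Among 24 measured genes of cytoplasmic and ciliary transduction, 6 rose and 8 fell in sorted ESC-OB GFP+ cells, 13 rose and 2 fell in ESC-OB, and 5 rose and 5 fell in iPSC-OB, in the authors' deposited tables. In sorted ESC-OB GFP+ cells 25% rose and 33.3% fell, against 39.1% and 32.4% of all tested genes, and in iPSC-OB 20.8% rose and 20.8% fell, against 26.1% and 23.1%, so the share that fell in the sorted cells and both shares in iPSC-OB lay near the background. In ESC-OB 54.2% rose and 8.33% fell, against 38.6% and 31%. The medians were -0.25, 0.62 and 0.06 on the log2 scale, where those of all genes were 0.33, 0.22 and 0.17, so this list stood below the all-gene median in sorted ESC-OB GFP+ cells and above it in ESC-OB. Sufu, which keeps Gli factors inactive, was not called in sorted ESC-OB GFP+ cells (0.02 ± 0.12) or ESC-OB (-0.09 ± 0.13) and fell in iPSC-OB (-0.73 ± 0.21) in the authors' deposited tables. Ulk3, a kinase that acts on Gli factors, rose by 3.52 ± 0.27, 2.58 ± 0.28 and 0.77 ± 0.31 in sorted ESC-OB GFP+ cells, ESC-OB and iPSC-OB in the authors' deposited tables. Spop, an adaptor for Gli degradation, rose in sorted ESC-OB GFP+ cells (2.76 ± 0.15) and ESC-OB (1.95 ± 0.15) and was not called in iPSC-OB (0.13 ± 0.18) in the authors' deposited tables. Dyrk2, a kinase, rose in all 3, by 1.51 ± 0.19, 2.01 ± 0.19 and 2.01 ± 0.47 in the authors' deposited tables. Kif7, the ciliary kinesin of the pathway, fell in ESC-OB (-0.95 ± 0.30) and iPSC-OB (-1.41 ± 0.38) and was not called in sorted ESC-OB GFP+ cells (-0.43 ± 0.28) in the authors' deposited tables. Gsk3b fell in sorted ESC-OB GFP+ cells (-0.78 ± 0.13) and rose in ESC-OB (0.79 ± 0.13) and iPSC-OB (0.46 ± 0.16) in the authors' deposited tables. Btrc, of the ubiquitin ligase that processes Gli factors, fell in sorted ESC-OB GFP+ cells (-0.62 ± 0.16) and ESC-OB (-0.84 ± 0.17) in the authors' deposited table.

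Reported Hedgehog target genes moved in both directions. Of 23 such genes, 16 rose and 4 fell in sorted ESC-OB GFP+ cells, 15 rose and 4 fell in ESC-OB, and 9 rose and 3 fell of the 22 present in iPSC-OB, in the authors' deposited tables. Of the 22 tested in each table, 72.7% rose and 18.2% fell in sorted ESC-OB GFP+ cells, 68.2% and 18.2% in ESC-OB, and 40.9% and 13.6% in iPSC-OB, where more of all tested genes also rose than fell (39.1% and 32.4%, 38.6% and 31%, and 26.1% and 23.1%). Gas1, Cdon and Boc, which also stand in the list of reception, are known as genes that Hedgehog signalling represses, so the list joins targets of both signs. The medians were 5.81, 5.33 and 1.29 on the log2 scale, and 7 of these genes lay under the floor in ESC, where fitted values rest on the authors' shrinkage. With those genes set to the floor the medians were 5.81 in sorted ESC-OB GFP+ cells and 5.21 in ESC-OB. Osr1 and Foxf1, mesenchymal transcription factors, rose in all 3 comparisons of the authors' deposited tables. Osr1 stood at an estimated 975 normalised reads in sorted ESC-OB GFP+ cells, 442 in ESC-OB and 0.57 in ESC, which is under the floor of 1.22, and at 116 in iPSC-OB against 8.58 in iPSC. Foxf1 stood at 334, 132 and 0.51 normalised reads in sorted ESC-OB GFP+ cells, ESC-OB and ESC, and at 37.6 in iPSC-OB against 3.53 in iPSC, with ESC again under the floor. Its relative Foxf2 stood at 120, 94.4 and 0.46 normalised reads in sorted ESC-OB GFP+ cells, ESC-OB and ESC, and at 14.6 in iPSC-OB against 2.11 in iPSC, with ESC under the floor as well. Mycn, a driver of proliferation that is also high in pluripotent cells, fell in all 3, with -2.97 ± 0.35, -3.51 ± 0.35 and -2.30 ± 0.31 in sorted ESC-OB GFP+ cells, ESC-OB and iPSC-OB in the authors' deposited tables. Cdk6, a cell cycle kinase, also fell in all 3, with -1.05 ± 0.25, -0.84 ± 0.26 and -2.19 ± 0.51 in the authors' deposited tables. Sfrp1, a secreted Wnt antagonist, was not called in sorted ESC-OB GFP+ cells (0.38 ± 0.23), fell in ESC-OB (-0.70 ± 0.23) and rose in iPSC-OB (1.47 ± 0.47) in the authors' deposited tables. Several of these genes are also known as mesenchymal genes, and all 8 smooth muscle and mesenchyme markers rose in sorted ESC-OB GFP+ cells and ESC-OB and 7 of 8 in iPSC-OB in the authors' deposited tables. Those are 100%, 100% and 87.5% of the markers, against 39.1%, 38.6% and 26.1% of all tested genes, and 0% fell, against 32.4%, 31% and 23.1%. The part of mesenchyme in the counts of reported target genes was not tested.

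**Figure D5:**
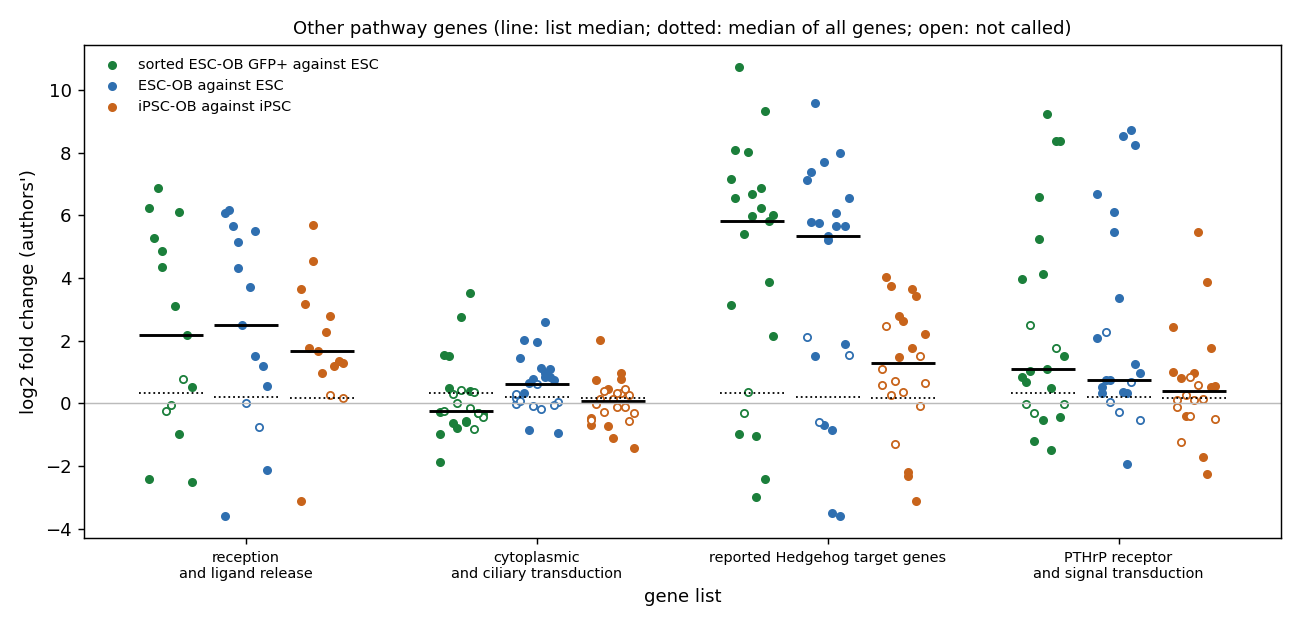
The authors' log2 fold changes (y axis) of the genes in 4 pathway lists (x axis) are plotted for sorted ESC-OB GFP+ cells against ESC, ESC-OB against ESC and iPSC-OB against iPSC, with the list median as a line and the median of all genes as a dotted line. Filled points passed an adjusted p of 0.05, and the target list reaches a median of 5.81 in sorted ESC-OB GFP+ cells while holding Mycn far below 0.

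Genes with changes most like those of 3 members were found by the distance over the 3 log2 fold changes among 13761 genes that had an adjusted p in every table and a base mean of at least 10. The ESC libraries are shared by the first pair of comparisons. Gli1 lay nearest to Xrcc5 (distance 0.22), 2810025M15Rik (0.24) and Trim28 (0.25), with 26 genes within a distance of 0.5. Hhip lay nearest to Pros1 (0.13), 4933421O10Rik (0.19) and Fam63b (0.24), with 23 genes within 0.5. Pthlh, which itself is under the base mean limit in the iPSC fit, had 0 genes within 0.5, and the nearest were Il17re (0.52), Aqp5 (0.73) and Tmem119 (0.86). Of these, Il17re had 9.90 in sorted ESC-OB GFP+ cells, 8.14 in ESC-OB and 1.17 in iPSC-OB on the log2 scale in the authors' deposited tables.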

How the data were processed

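Messenger RNA was sequenced, and 3 tables of the authors' comparisons were used. DESeq2, R 3.2.2, STAR 2.4.2a and the mouse genome build mm9 are listed in the submitters' processing notes without their roles. Per the file headers, the tables hold the authors' base mean, which is a signal, namely normalised counts averaged over libraries. They also hold, per the file headers, the authors' log2 fold change and its log2 standard error. The remaining deposited columns are a test score (the Wald statistic), its p-value and the adjusted value. Fold changes are shrunken, which understates genes with few reads. Their direction was read from Pou5f1, Nanog and Esrrb, which lie far below 0 in each deposited log2 column, so positive means higher in the differentiated cells. The ESC comparisons hold 19781 genes each and the iPSC comparison 19057, of which 18208 (ESC-OB), 18588 (sorted ESC-OB GFP+) and 17579 (iPSC-OB) have the authors' adjusted p-value. No column holds values of a single sample, so no count test was fitted. Primary calvarial osteoblasts and bone GFP+ cells (9 samples) were not analysed here.

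A gene was called at an adjusted p under 0.05. Differences between 2 changes used the deposited standard errors as independent, a two-sided normal p and Benjamini-Hochberg adjustment over all genes with both values (Python 3.11.15, pandas 2.3.3, NumPy 2.4.6, SciPy 1.17.1). For sorted minus unsorted this makes the standard error too large, because both changes share the ESC libraries. Reads per library were worked out from base means (absolute tolerance 2e-13), a step chosen after seeing the data. The 1914 genes with a base mean under 0.9 in the ESC fit each had exactly 1 set of reads. So did the 3966 with a base mean under 6 in the iPSC fit, and base means shifted on purpose had 0. Some genes reported by library, such as Ihh and Hhip, lay above that limit and also had 1 set each. Both steps were tested on simulated data. The simulated errors of the 2 changes were independent, so the effect of the shared ESC libraries was not tested. Groups came from the labels, and no library was tied to a replicate. The genes named besides the 9 are, for each pathway list, the 3 largest changes in each direction among called genes with a base mean of at least 10 in the ESC-OB table, list genes called in opposite directions, and Pth1r, and some genes that this rule names are counted in the lists but not reported here by name. Dhh, Gnas, Sufu, Tnfsf11 and the markers singled out were chosen after their values were seen. The 9 genes and all lists were chosen with earlier results of these data known. Grk2 was found as Adrbk1, and 1 listed gene, Mosmo, was not in the tables. Alternatives were other thresholds, filters and centring.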

Additional observations from a re-analysis of the deposited data

Results flagged for a closer look

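A tested difference between 2 changes was found for 3 of the 9 genes. In sorted minus unsorted, 1 of the 9 was called, where 22.7% of all genes were. In iPSC-OB minus ESC-OB, 2 of the 9 were called, where 28.2% of all genes were. These counts alone do not set the 9 genes apart. Ptch1 fell further in sorted ESC-OB GFP+ cells than in ESC-OB, by -2.30 ± 0.37 on the log2 scale, with log2 fold changes of -3.30 and -0.999 in the authors' deposited table. Smo differed by -2.09 ± 0.43 between iPSC-OB and ESC-OB, with log2 fold changes of -0.67 and 1.42 in the authors' deposited tables. Pthlh differed by -6.26 ± 1.64 between iPSC-OB and ESC-OB, with log2 fold changes of 1.44 and 7.70 in the authors' deposited tables, and it had 21 reads over the iPSC-OB libraries.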

How the results depend on the processing

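No paired analysis was possible because the tables hold no values per sample and no replicate numbers. For the same reason another normalisation, another count test and a refit without each replicate were not run. Over thresholds of 0.01 and 0.1, adjustment over every gene, a base mean of at least 10, a log2 fold change of at least 1, a correlation of 0.5 for the shared ESC libraries and re-centring by the median gene (0.19, 0.21 and 0.06 on the log2 scale in ESC-OB, sorted ESC-OB GFP+ cells and iPSC-OB), 229 of 236 values of the 9 genes kept their call and direction, 5 lost the call, 2 gained it and 0 reversed. Only re-centring alters a fold change or a difference, so no direction could reverse under the other settings. Values without a call in either setting count as kept. Under re-centring 43 values kept their call and direction, 1 lost the call and 1 gained it. Gli3 gained a call in sorted ESC-OB GFP+ cells when re-centred (adjusted p = 0.0286). The lost calls were Shh in ESC-OB at 0.01, with adjustment over every gene (adjusted p = 0.0510) and re-centred (adjusted p = 0.0602), Shh in iPSC-OB at 0.01, and Ptch1 in ESC-OB at a log2 fold change of 1, where it has -0.999. With a correlation of 0.5 for the shared ESC libraries, the sorted minus unsorted difference called 6980 genes in place of 4499 and 2 of the 9 genes in place of 1, Gli3 being added (adjusted p = 0.0134). With a base mean of at least 10, iPSC-OB minus ESC-OB called 1 of the 9 genes, Smo, in place of 2, because Pthlh was not tested. Counts of genes called in the 3 comparisons stayed within 1.5 times of the values above under these settings. Shh in ESC-OB rests on 9 reads and Pthlh in iPSC-OB on 21 reads, whereas Shh in iPSC-OB rests on 2 libraries, which had 53 reads and 1 read.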
